A study of Mus musculus with 18 samples.

Results

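Type I interferon stimulated genes are described here in regulatory T cells (Tregs) that lack or carry CD25, the α chain of the IL-2 receptor encoded by *Il2ra*. The set holds 38 genes, chosen by symbol, and all 38 matched a row among the 50600 genes of the count table. Tregs were purified by FACS from 18 C57BL/6 mice, each of which gave 1 RNA-seq library. Thymic CD25 KO Tregs came from 5 CD25cKO mice (CD25flox/Foxp3-YFP/Cre), aged 3–4 weeks, whose Cre is expressed from the *Foxp3* locus and which had been "cured" of autoimmunity by WT splenocytes given to the newborn. Thymic WT Tregs came from 5 Foxp3/RFP reporter mice of the same age. Splenic CD25 KO Tregs came from 4 CD25flox/Foxp3eGFP-Cre-ERT2/R26Y mice and splenic WT Tregs from 4 CD25 WT reporter controls. Tamoxifen induction took place at 7–10 weeks of age, and splenic Tregs were sorted 10–14 days afterwards. In the thymus the genotypes also differed in the reporter allele of *Foxp3* and in the transferred splenocytes, so these cannot be told apart from the loss of CD25. Tissue, the date at the head of the column names, age, tamoxifen and mouse model changed together between thymic and splenic samples and cannot be told apart either.

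Type I interferons (IFN-α and IFN-β) bind a receptor made of IFNAR1 and IFNAR2. Its kinases activate a transcription factor complex that contains STAT2 and IRF9 and binds the interferon-stimulated response element (ISRE) of target genes, while IFN-γ acts mainly through the GAS element. The targets detect viral nucleic acid, block translation, degrade RNA and restrain the pathway itself, and many are also expressed at a basal level without infection.

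Total counts ranged from 17239774 to 23993674 in thymic and from 25258341 to 32639570 in splenic libraries, so 3 counts, the smallest level regarded as detectable, corresponded to at most 0.162 CPM, the unit of level used here, which is a gene's count relative to the TMM-scaled library total. The lowest count of any member in any library was 40, for *Ifi44*. *Il2ra* was lower in every CD25 KO library, with 95.2 to 288 CPM against 526 to 683 CPM for the thymus and 166 to 208 CPM against 481 to 534 CPM for the spleen. *Foxp3* was also lower in every CD25 KO library than in any WT library of its tissue, with 274 to 346 CPM against 401.2 to 579 CPM (thymus) and 206 to 237 CPM against 319 to 340 CPM (spleen). All 7 Treg markers examined were detected in all 4 groups.

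Promoters of called members are shown because promoters of interferon targets can hold the sequences that interferon-activated factors bind. Of the 38 genes, 30 have an entry in the RefSeq table of promoters for GRCm38.p6, which gives 300 bases from 250 before the transcription start to 50 after it. The shortened ISRE core GAAANNGAA was searched for on either strand and was present in 14 of the 30 genes, against 9.76% of all 27025 genes with an entry. The GAS motif TTCNNNGAA was present in 9 of the 30 genes, against 9.55% of all genes. The genes with the ISRE core were *Adar*, *Bst2*, *Ddx58*, *Eif2ak2*, *Ifi44*, *Ifih1*, *Ifit1*, *Ifit3*, *Isg15*, *Oas1a*, *Oas3*, *Rsad2*, *Trim25* and *Trim30a*. Promoters are given for the called genes *Ifih1* (chr2:62646206-62646505, minus strand), *Oas1a* (chr5:120907476-120907775, minus strand) and *Oas3* (chr5:120777610-120777909, minus strand), which hold the ISRE core, and for *Ifit2* (chr19:34550444-34550743, plus strand) and *Irf1* (chr11:53769764-53770063, plus strand), which do not. *Ifit2* and *Irf1* each have a second window with no match to either motif. The called gene *Parp9* has no entry. Each sequence runs 5′ to 3′ along the gene, with matches to either motif in capitals.
Ifih1: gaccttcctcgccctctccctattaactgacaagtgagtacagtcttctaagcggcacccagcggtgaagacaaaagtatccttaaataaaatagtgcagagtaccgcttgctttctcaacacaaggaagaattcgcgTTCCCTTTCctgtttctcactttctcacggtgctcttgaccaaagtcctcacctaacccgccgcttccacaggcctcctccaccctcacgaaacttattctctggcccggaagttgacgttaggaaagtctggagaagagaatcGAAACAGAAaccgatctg
Oas1a: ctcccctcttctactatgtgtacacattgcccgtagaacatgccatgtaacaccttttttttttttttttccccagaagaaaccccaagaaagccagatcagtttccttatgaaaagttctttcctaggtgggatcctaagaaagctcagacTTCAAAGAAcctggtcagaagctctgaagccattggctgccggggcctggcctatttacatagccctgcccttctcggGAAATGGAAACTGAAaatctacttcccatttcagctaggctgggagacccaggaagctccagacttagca
Oas3: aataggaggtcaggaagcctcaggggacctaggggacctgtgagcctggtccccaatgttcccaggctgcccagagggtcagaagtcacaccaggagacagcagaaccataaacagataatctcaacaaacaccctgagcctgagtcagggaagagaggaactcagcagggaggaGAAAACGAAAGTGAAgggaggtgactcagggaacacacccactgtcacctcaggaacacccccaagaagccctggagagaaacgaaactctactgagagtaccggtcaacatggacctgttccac
Ifit2: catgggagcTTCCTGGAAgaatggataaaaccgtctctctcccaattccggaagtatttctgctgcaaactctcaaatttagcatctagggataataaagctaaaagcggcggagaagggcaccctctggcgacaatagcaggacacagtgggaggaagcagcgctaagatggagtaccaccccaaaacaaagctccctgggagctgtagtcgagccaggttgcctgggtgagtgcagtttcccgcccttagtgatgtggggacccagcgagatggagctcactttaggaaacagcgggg
Irf1: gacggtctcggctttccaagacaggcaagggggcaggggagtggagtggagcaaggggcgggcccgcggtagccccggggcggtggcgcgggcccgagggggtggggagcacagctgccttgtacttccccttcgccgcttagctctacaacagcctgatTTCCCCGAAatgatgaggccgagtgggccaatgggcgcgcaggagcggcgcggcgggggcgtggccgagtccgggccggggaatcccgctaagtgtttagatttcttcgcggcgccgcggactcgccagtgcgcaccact
In *Oas1a* and *Oas3* matches to the ISRE core overlapped each other, starting 20 and 14 bases before the start of *Oas1a* and 75 and 69 bases before that of *Oas3*. *Oas1a* also had a GAS motif 98 bases before its start. In *Ifih1* one match lay 112 bases before the start and the other 32 bases after it. *Irf1* had its GAS motif 90 bases and *Ifit2* 241 bases before the start. A match describes the letters only.

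Averaged over the 38 genes, the level was lower in the spleen than in the thymus. Mean log2 CPM per mouse was 6.27, 6.33, 6.27, 6.25 and 6.44 for WT and 6.22, 6.23, 6.14, 6.25 and 6.71 for CD25 KO Tregs of the thymus. For the spleen it was 5.60, 5.89, 5.87 and 5.57 with CD25 and 5.90, 5.82, 5.84 and 5.88 without it. Group means were 6.31 ± 0.08 (SD, n = 5) for thymic WT, 6.31 ± 0.23 (SD, n = 5) for thymic CD25 KO, and 5.73 ± 0.17 (SD, n = 4) and 5.86 ± 0.04 (SD, n = 4) for splenic WT and CD25 KO Tregs. Genotypes overlapped in both tissues, and no splenic mouse reached the lowest thymic mouse. Thymic CD25 KO mouse 5 stood above all other mice, and without it the thymic CD25 KO mean was 6.21 ± 0.05 (SD, n = 4). The other 4 thymic CD25 KO mice were all below the lowest thymic WT mouse, the closest at 6.245 against 6.254, so the overlap in the thymus rested on mouse 5. Mouse 5 was singled out by this same mean, so the order of the remaining mice is a description and no test of genotype. In bulk RNA, fewer cells that express a gene and less RNA per cell cannot be told apart.

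**Figure D1:**
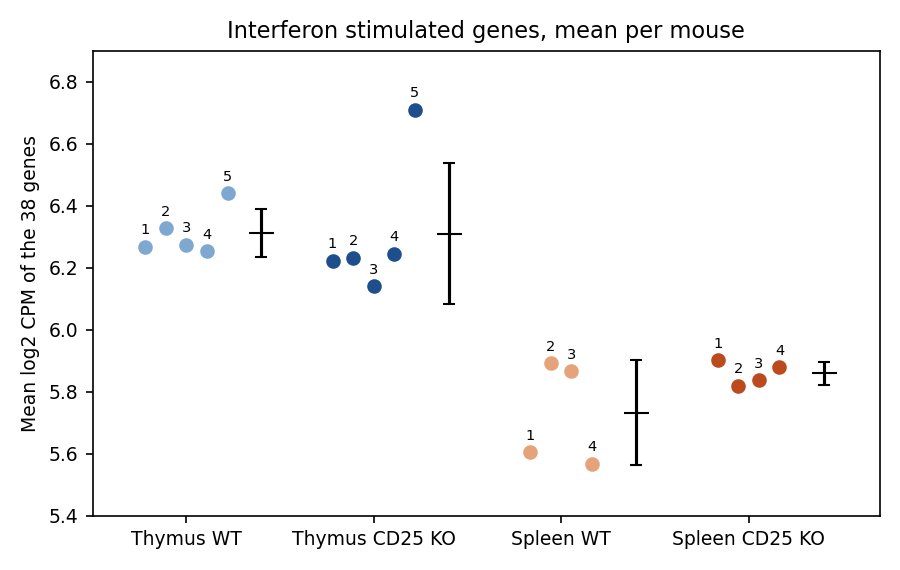
Mean log2 CPM of the 38 interferon stimulated genes in each mouse (y axis) for the 4 groups (x axis). Points are mice with their numbers, and black marks are the group mean and SD. Thymic mice lie between 6.14 and 6.71 and splenic mice between 5.57 and 5.90.

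Per length of exon, *Samhd1*, *Ifi47* and *Sp100* were among the 4 highest members in every group. In thymic WT Tregs the highest mean RPKM (CPM divided by the kilobases of exon) was that of *Samhd1*, a hydrolase of deoxynucleotides, at 107 ± 5.11 (SD, n = 5). It was followed by the GTPase gene *Ifi47* at 94.9 ± 6.71 (SD, n = 5) and the nuclear body gene *Sp100* at 75.0 ± 1.14 (SD, n = 5). In splenic WT Tregs *Samhd1* was again first at 108 ± 10.4 RPKM (SD, n = 4), within the spread of the thymic value, and *Irf1* was second at 89.1 ± 6.01 RPKM (SD, n = 4), a level that did not differ from *Ifi47* at 82.3 ± 10.6 RPKM (SD, n = 4) beyond their spread. In thymic CD25 KO Tregs *Ifi47* (96.8 ± 17.4 RPKM, SD, n = 5) and *Samhd1* (93.6 ± 13.9 RPKM, SD, n = 5) were first and also within their spread. *Ifi44* was last in all 4 groups, with means from 0.374 to 0.734 RPKM.

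The comparison of CD25 KO with WT Tregs in the thymus covers Tregs that lost CD25 while they developed. The reporter allele of *Foxp3* and the transferred splenocytes differed as well. Of the 38 genes, 2 rose (*Irf1* and *Ifit2*) and 1 fell (*Oas3*) at FDR < 0.01 in edgeR. Among all 16986 genes tested, 6.16% were called, 3.17% as higher and 2.99% as lower, so the share of the 38 genes was near the background. The median log2 fold change was 0.04 over the 38 genes and -0.00 over all genes tested, with 22 of the 38 positive. Without CD25 KO mouse 5 the median was -0.08 and 12 of the 38 were positive. That mouse was picked out by its high level of these same genes, so this shift is a description only. At FDR < 0.05, 4 of the 38 were higher and 2 lower, against 2093 and 1858 of all genes tested.

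*Irf1*, a transcription factor induced through GAS by IFN-γ and by type I interferon (chr11:53770014-53778374), had 209, 239, 218, 184 and 227 CPM in thymic WT and 296, 249, 265, 260 and 283 CPM in thymic CD25 KO mice. Every CD25 KO mouse was above every WT mouse. The log2 fold change was 0.34 ± 0.07 (SE), and the Benjamini-Hochberg adjusted p of edgeR was 0.00811. *Ifit2*, which binds viral RNA and curbs its translation, had 70.4, 67.9, 69.8, 72.5 and 73.1 CPM in WT and 95.2, 101, 75.5, 85.4 and 107 CPM in CD25 KO mice. These groups did not overlap either, and the log2 fold change was 0.40 ± 0.08 (SE; edgeR adjusted p = 0.00668). *Oas3*, a synthase of the 2′-5′ oligoadenylates that activate RNase L, had 49.0, 63.8, 67.7, 50.8 and 74.1 CPM in WT and 31.9, 36.4, 36.6, 39.3 and 49.9 CPM in CD25 KO mice. CD25 KO mouse 5 overlapped the lowest WT mouse, and the log2 fold change was -0.65 ± 0.13 (SE; edgeR adjusted p = 0.00756). These genes are shown because they were called, so the lack of overlap in *Irf1* and *Ifit2* adds no support.

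These calls stood close to the threshold. Leaving out 1 mouse at a time kept the direction of each, with log2 fold changes of 0.29 to 0.38 for *Irf1*, 0.34 to 0.46 for *Ifit2* and -0.75 to -0.57 for *Oas3*, but the call was lost in 9, 7 and 7 of 10 cases, with adjusted p of at most 0.0217, 0.0219 and 0.0230 by edgeR. *Irf1* kept its call only without CD25 KO mouse 2, *Ifit2* without CD25 KO mouse 3, 4 or 5, and *Oas3* without WT mouse 1 or 4 or CD25 KO mouse 5. After removal of each library's trend with GC content, *Irf1* stayed called (log2 fold change 0.45) while *Ifit2* (0.22, edgeR adjusted p = 0.0348) and *Oas3* (-0.50, edgeR adjusted p = 0.0281) did not. Without CD25 KO mouse 5, *Samhd1* was called as lower (-0.28, edgeR adjusted p = 0.00657). *Samhd1* was highest of its group in that mouse, so the choice of mouse favored this call and it adds no support.

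**Figure D2:**
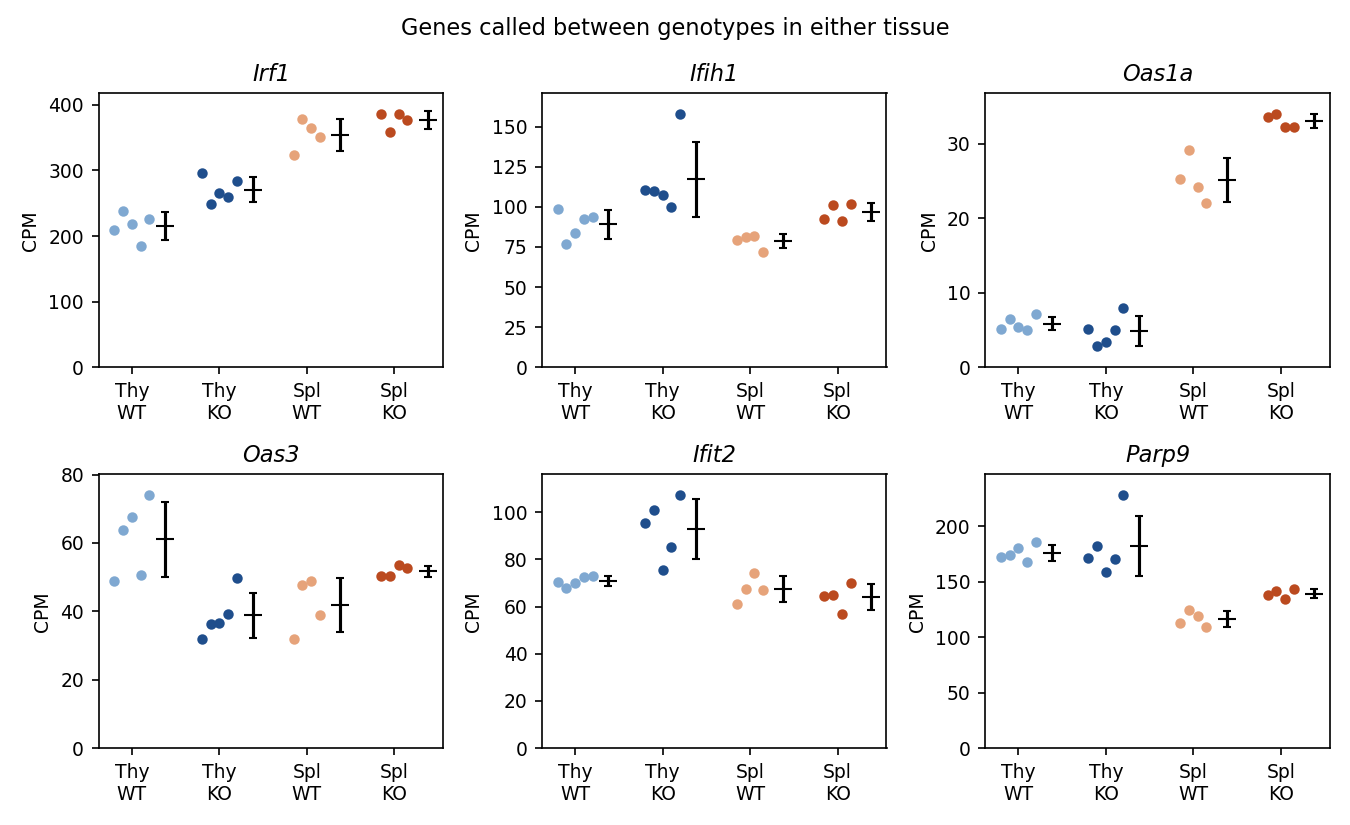
CPM per mouse (y axis, from 0) of the 6 genes called between genotypes in the thymus (Irf1, Oas3, Ifit2) or the spleen (Ifih1, Oas1a, Parp9), for thymic (Thy) and splenic (Spl) WT and CD25 KO (KO) Tregs. Points are mice and black marks the mean and SD. Irf1 and Ifit2 do not overlap between thymic genotypes, and Oas1a is at 2.85 to 7.89 CPM in thymic and 22.0 to 34.0 CPM in splenic mice.

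The same comparison in the spleen addresses mature Tregs that lost CD25 shortly before. Of the 38 genes, 3 rose (*Ifih1*, *Oas1a* and *Parp9*) and 0 fell at FDR < 0.01 in edgeR, against 9.45% of 17463 genes tested, 5.9% higher and 3.55% lower. The median log2 fold change was 0.08 over the 38 genes. At FDR < 0.05, 8 were higher and 1, *Usp18*, lower, against 1774 higher and 1227 lower over all genes. DESeq2 called 5 higher and 1 lower at FDR < 0.01, against 1310 and 835 over all genes.

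*Ifih1* encodes MDA5, a cytoplasmic sensor of long double-stranded RNA. It had 79.6, 81.2, 81.7 and 72.1 CPM in splenic WT and 92.2, 101, 91.5 and 102 CPM in splenic CD25 KO mice, with no overlap. The log2 fold change was 0.28 ± 0.06 (SE; edgeR adjusted p = 0.00240). *Oas1a*, another oligoadenylate synthase, had 25.3, 29.1, 24.2 and 22.0 CPM in WT and 33.6, 34.0, 32.3 and 32.3 CPM in CD25 KO mice. Again all CD25 KO mice were higher, with a log2 fold change of 0.38 ± 0.08 (SE; edgeR adjusted p = 0.00320). *Parp9*, an ADP-ribosyltransferase that works with the ubiquitin ligase DTX3L, had 112, 124.7, 119 and 109 CPM in WT and 138, 141, 134 and 143 CPM in CD25 KO mice. The groups did not overlap, and the log2 fold change was 0.25 ± 0.05 (SE; edgeR adjusted p = 0.00390). *Ifih1*, *Oas1a* and *Parp9* are shown because they were called, so their lack of overlap adds no support. *Parp9* and *Dtx3l* lie head to head on chromosome 16 and overlap by 682 bases, and how the counting treated strand is not given in the sources used here. *Oas1a* shares sequence with its *Oas1* paralogs, so its counts are uncertain where reads could fall on either.

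Without splenic WT mouse 4 all 3 calls were lost, with log2 fold changes of 0.24 for *Ifih1*, 0.32 for *Oas1a* and 0.21 for *Parp9*. *Oas1a* was also lost without WT mouse 3, and *Parp9* without WT mouse 1 or 3 or CD25 KO mouse 2 or 4. None of the 3 was called when the spread was estimated over all 18 libraries (edgeR adjusted p = 0.105, 0.202 and 0.0532). Markers of NK cells summed to 4.71 to 7.90 CPM over 4 genes in splenic WT and 10.8 to 16.1 CPM in splenic CD25 KO libraries, with 1 of the 4 at 0 in every library of each group. Macrophage and monocyte markers summed to 19.2 to 27.9 CPM and 25.2 to 32.2 CPM over 7 genes. The mean of *Lyz2* went from 6.10 (WT) to 12.6 CPM (CD25 KO), that of *Csf1r* from 6.38 to 5.47 and that of *Adgre1* from 1.45 to 0.839. Of the 7 genes, 5 had positive and 2 negative log2 fold changes, and 1 was called, as higher. The NK sum rested on *Eomes* and *Klrb1c*, since *Ncr1* was at 0 and *Klri2* had at most 2 counts. The part of such cells in the result was not tested.

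**Figure D3:**
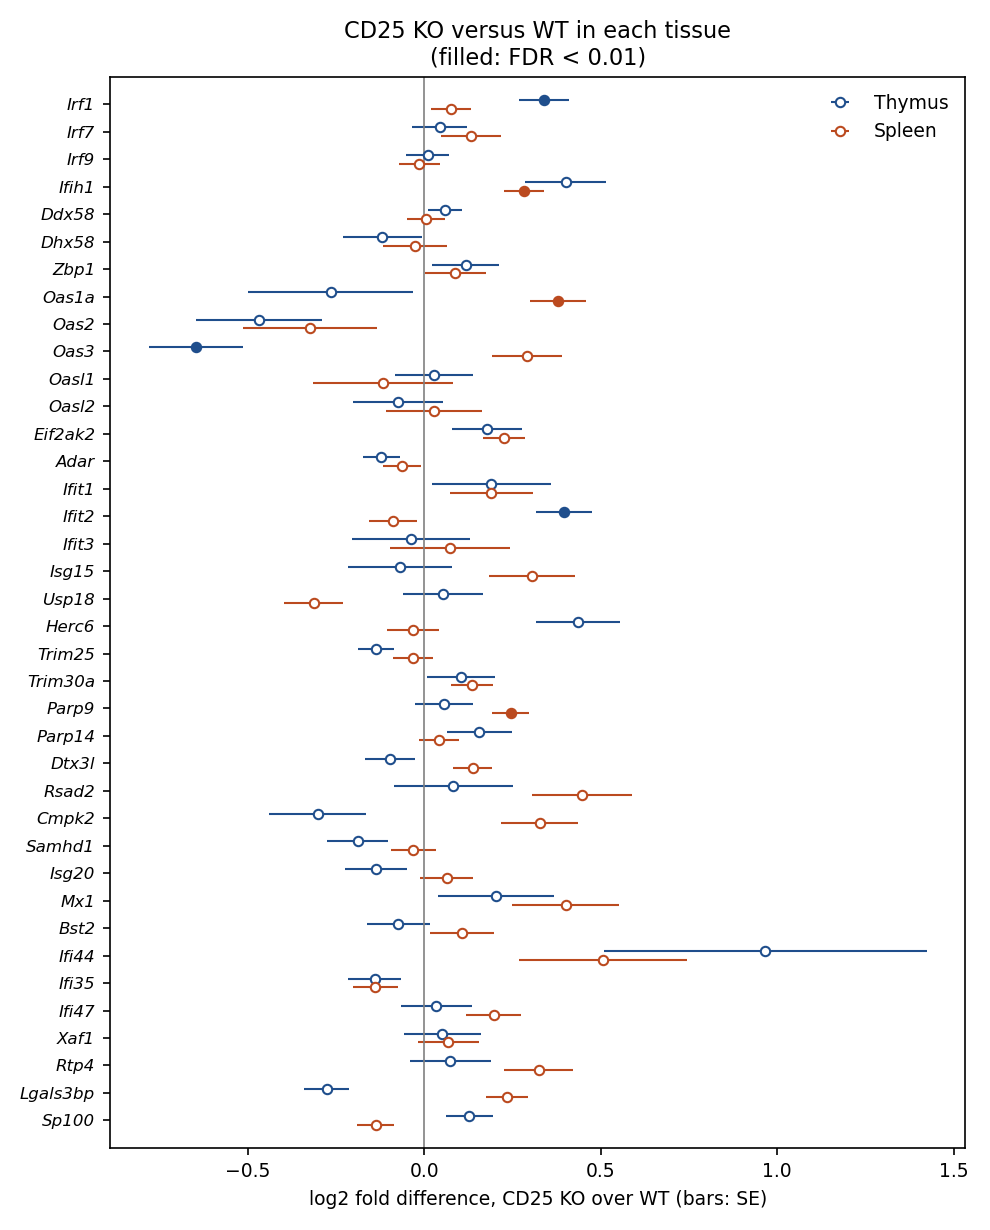
Log2 fold difference of CD25 KO over WT (x axis) for each of the 38 genes (y axis) in the thymus (blue) and the spleen (red), with SE bars. Filled points passed FDR < 0.01, namely Irf1, Ifit2 and Oas3 in the thymus and Ifih1, Oas1a and Parp9 in the spleen.

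The members are taken next by role. Of the interferon regulatory factors, *Irf7*, the factor that amplifies IFN-α production, had 125.2, 138, 124, 121 and 144 CPM in thymic WT and 128.2, 123, 123, 135 and 160 CPM in thymic CD25 KO mice. In the spleen it had 58.8, 71.6, 79.3 and 58.4 CPM in WT and 79.4, 69.2, 73.7 and 74.2 CPM in CD25 KO mice. Genotypes overlapped in both tissues, and the thymic log2 fold change was 0.04 (95% interval -0.12 to 0.21) and the splenic one 0.13 (-0.05 to 0.31). *Irf9*, the DNA-binding partner of STAT2, had log2 fold changes of 0.01 and -0.01. *Irf7* overlaps *Phrf1* on the opposite strand and *Irf9* overlaps *Rnf31* on the same strand, so reads of these pairs may not be told apart.

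Of the 4 sensors of viral nucleic acid, edgeR called *Ifih1* in the spleen and DESeq2 in both tissues. In the thymus it had 98.7, 76.8, 83.5, 92.5 and 93.6 CPM in WT and 111, 110, 107, 99.9 and 158 CPM in CD25 KO mice, a log2 fold change of 0.40 ± 0.12 (SE; adjusted p = 0.0278 in edgeR and 0.00699 in DESeq2). The difference between the tissues' changes was -0.10 (edgeR adjusted p = 0.654). *Ddx58* (RIG-I), *Dhx58* (LGP2) and *Zbp1*, a sensor of Z-form nucleic acid, had thymic log2 fold changes between -0.12 and 0.12 and splenic ones between -0.03 and 0.09.

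The 7 genes of the OAS family, PKR and ADAR1 differed among themselves. Log2 fold changes in the thymus were -0.26 for *Oas1a*, -0.47 for *Oas2*, 0.03 for *Oasl1* and -0.07 for *Oasl2*, none of them called. In the spleen *Oas2* (-0.32), *Oas3* (0.29), *Oasl1* (-0.12) and *Oasl2* (0.03) were not called. *Eif2ak2* (PKR), the kinase that halts translation on double-stranded RNA, had log2 fold changes of 0.18 and 0.23 in thymus and spleen, the latter called by DESeq2, and the RNA editor *Adar* -0.12 and -0.06. The IFIT genes *Ifit1*, *Ifit2* and *Ifit3* lie next to each other on chromosome 19, and of these *Ifit1* (0.19 and 0.19) and *Ifit3* (-0.04 and 0.07) were called in neither tissue. Without thymic CD25 KO mouse 5 the thymic estimate turned from positive to negative in 10 of the 38 genes, none of them called in the thymus: *Irf7* (-0.03), *Irf9* (-0.04), *Oasl1* (-0.08), *Ifit1* (-0.04), *Usp18* (-0.08), *Parp9* (-0.03), *Rsad2* (-0.14), *Ifi47* (-0.08), *Xaf1* (-0.08) and *Rtp4* (-0.06).

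*Isg15*, the ubiquitin-like modifier, had 20.6, 26.4, 24.4, 20.97 and 31.0 CPM in thymic WT and 18.5, 21.9, 21.3, 23.1 and 32.3 CPM in thymic CD25 KO mice. It had 7.36, 11.2, 11.3 and 9.96 CPM in splenic WT and 12.7, 13.7, 11.6 and 11.6 CPM in splenic CD25 KO mice. The thymic groups overlapped, while each splenic CD25 KO mouse was above each WT mouse. The log2 fold changes were -0.07 (95% interval -0.39 to 0.25) and 0.31 (0.05 to 0.57), and neither passed the test (edgeR adjusted p = 0.763 and 0.104). *Usp18*, which removes ISG15 and damps IFNAR signaling, had log2 fold changes of 0.05 and -0.31, and the ligase *Herc6* 0.44 and -0.03. DESeq2 called *Herc6* in the thymus and *Usp18* in the spleen. *Trim25*, which activates RIG-I, had -0.14 and -0.03, and *Trim30a* 0.10 and 0.14.

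In the PARP9 group, *Parp14* had log2 fold changes of 0.16 and 0.04 and *Dtx3l* of -0.10 and 0.14 in thymus and spleen. Among nucleotide and nucleic acid effectors, the neighbors *Rsad2* (viperin, which makes a chain-terminating nucleotide) and *Cmpk2* on chromosome 12 had 0.08 and -0.30 in the thymus and 0.45 and 0.33 in the spleen. *Samhd1* had -0.19 and -0.03, and the exonuclease *Isg20* -0.14 and 0.06. None of these 6 was called.

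Of the 9 other effectors edgeR called none in either tissue at FDR < 0.01, while DESeq2 called *Lgals3bp* in both. *Mx1* had a thymic log2 fold change of 0.20 and a splenic one of 0.40, *Bst2* (tetherin, which holds budding virus at the membrane) -0.07 and 0.11, *Ifi35* -0.14 and -0.14, *Ifi47* 0.03 and 0.20, *Xaf1* 0.05 and 0.07, *Rtp4* 0.07 and 0.32, and *Sp100* 0.13 and -0.14. *Ifi44* had the highest thymic estimate, 0.97 ± 0.46 (SE; edgeR adjusted p = 0.142), which rested on 1 mouse, with 12.4 CPM in CD25 KO mouse 5 and 2.09 to 3.34 CPM in the other 4.

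Whether the change on loss of CD25 differed between tissues was tested directly over all 18 libraries. In edgeR, 3 of the 38 genes differed at FDR < 0.01, 2 with a higher change in the spleen (*Oas3* and *Lgals3bp*) and 1 with a lower one (*Ifit2*), against 6.98% of 18686 genes, 4.5% higher and 2.49% lower. For *Oas3* the difference, spleen minus thymus, was 0.96 ± 0.19 on the log2 scale (SE; edgeR adjusted p = 0.00211). Splenic *Oas3* was 31.9, 47.7, 48.9 and 39.0 CPM in WT and 50.2, 50.4, 53.6 and 52.6 CPM in CD25 KO mice, so the CD25 KO mice were above WT in the spleen and mostly below it in the thymus. *Lgals3bp*, a secreted glycoprotein, was 103, 117, 112, 104 and 117 CPM in thymic WT and 82.4, 98.1, 82.4, 97.4 and 93.8 CPM in thymic CD25 KO mice. It was 110, 118, 116 and 102 CPM in splenic WT and 135, 142, 124 and 128.05 CPM in splenic CD25 KO mice. Genotypes did not overlap in either tissue and differed in opposite directions, with log2 fold changes of -0.28 and 0.23 that each missed FDR < 0.01 in edgeR and passed it in DESeq2 (adjusted p = 0.00163 and 0.00383), and a difference of 0.53 ± 0.09 (SE; edgeR adjusted p = 0.000668). *Lgals3bp* was singled out after its values were seen, so its lack of overlap adds no support. The difference of *Ifit2* was -0.47 ± 0.11 (SE; edgeR adjusted p = 0.00720). Leaving out 1 mouse at a time kept the calls of *Oas3* and *Lgals3bp* in 18 of 18 cases, while that of *Ifit2* was lost in 12 (-0.49 to -0.42 in those cases) and with the GC correction (-0.35). Without thymic CD25 KO mouse 5, 5 members had a higher change in the spleen. Over all genes 882 did, against 840 with all 18 mice. That mouse was picked out by its high values of these same genes. Leaving it out favors such calls, so their number adds no support.

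The largest differences of the set lay between WT Tregs of the 2 tissues. Of the 38 genes, 26 were lower and 2 higher in splenic than in thymic WT Tregs at FDR < 0.01 in edgeR, against 40.4% of 18686 genes, 21% higher and 19.5% lower. The median log2 fold change was -0.49 over the 38 genes and 0.01 over all genes tested. All 5 genes of the ISG15 and ubiquitin group were lower, as were 6 of 7 of the OAS, PKR and ADAR1 group, 3 of 4 sensors and 2 of 3 IFIT genes. Of the nucleotide and nucleic acid effectors 1 of 4 was lower, and of the other effectors 5 of 9. The regulatory factors and the PARP9 group each had 2 of 3 lower. Among 35 other interferon stimulated genes tested, 12 were lower and 10 higher, with a median log2 fold change of -0.10. With any 1 mouse left out, 22 to 27 of the 38 genes were lower and 2 higher.

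*Oasl1*, an OAS-like protein that binds RNA and lacks synthase activity, was 15.5, 19.1, 16.3, 17.9 and 17.9 CPM in thymic WT and 2.75, 4.76, 4.16 and 3.40 CPM in splenic WT mice. It fell by 2.18 on the log2 scale (SE 0.17; edgeR adjusted p = 1.15e-09). *Ifit1*, which binds RNA without a methylated cap, was 113, 102, 101, 105 and 125.6 CPM in the thymus and 28.6, 39.3, 37.2 and 25.0 CPM in the spleen, a log2 fold change of -1.73 ± 0.18 (SE; edgeR adjusted p = 7.76e-08). *Oas2* was 20.6, 27.7, 36.0, 21.3 and 33.9 CPM in the thymus and 9.08, 8.51, 8.79 and 7.15 CPM in the spleen, and fell by 1.71. *Rsad2* was 22.5, 21.8, 22.2, 20.5 and 27.3 CPM in the thymus and 7.59, 9.45, 9.89 and 5.63 CPM in the spleen, and fell by 1.47. These 4 genes were chosen as the called members with the largest falls, so their lack of overlap between the tissues adds no support. *Isg15* (-1.29) and *Irf7* (-0.94) were lower as well.

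*Oas1a* and *Irf1* were the exceptions. *Oas1a* was 5.17, 6.49, 5.41, 5.04 and 7.11 CPM in thymic WT mice against the 22.0 to 29.1 CPM of splenic WT mice, a log2 fold change of 2.12 ± 0.18 (SE; edgeR adjusted p = 5.33e-09). It thus ran opposite to *Oas2* and *Oas3* on the same stretch of chromosome 5. *Irf1* was 184 to 239 CPM in the thymus and 323, 379, 364 and 351 CPM in the spleen, a log2 fold change of 0.74 ± 0.07 (SE; edgeR adjusted p = 3.83e-08). The 10 genes that passed in neither direction were *Ifih1*, *Ifit2*, *Parp14*, *Cmpk2*, *Samhd1*, *Isg20*, *Ifi44*, *Ifi47*, *Lgals3bp* and *Sp100*. Markers of CD8 T cells and immature thymocytes summed to 40.2 to 172 CPM over 6 genes in thymic WT and 8.24 to 10.3 CPM in splenic WT libraries, with 2 of the 6 at 0 in the spleen. Of 6 markers of plasmacytoid dendritic cells, a cell type known for making type I interferon, *Siglech* was 3.51 to 21.9 CPM in thymic and 0.0381 to 0.156 CPM in splenic WT libraries, and *Klk1* 0.300 to 5.65 CPM and at most 0.0849 CPM. *Ccr9* and *Pacsin1* made up most of the summed level of 209 to 274 CPM and 107 to 113 CPM. Their part in the differences was not tested.

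**Figure D4:**
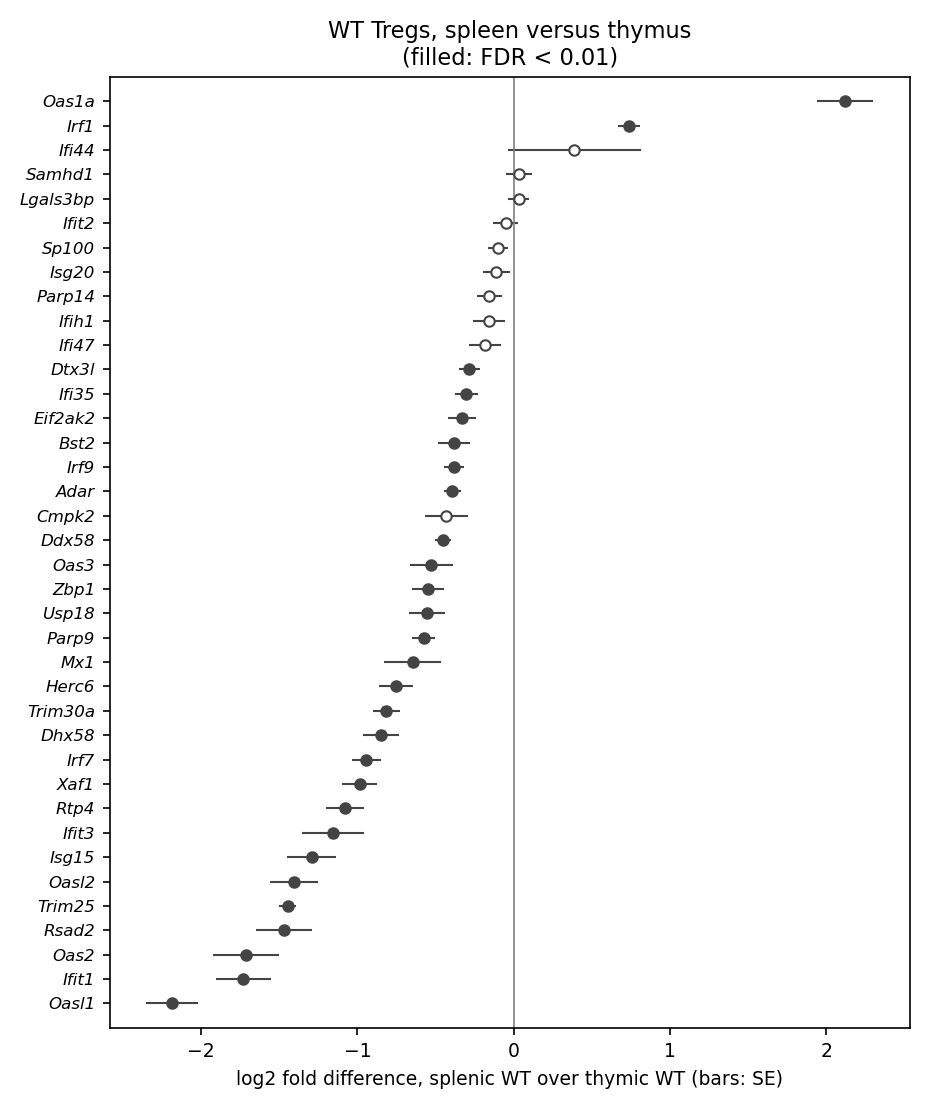
Log2 fold difference of splenic over thymic WT Tregs (x axis) for the 38 genes (y axis, ordered by value), with SE bars. Filled points passed FDR < 0.01. Values run from -2.18 for Oasl1 to 2.12 for Oas1a, and 26 of the 28 filled points are below 0.

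Within a group, many of the genes were high or low in the same mice. Thymic CD25 KO mouse 5 had the highest value of its group in 35 of the 38 genes, and in 30.0% of all 16986 genes. The exceptions were *Irf1*, *Adar* and *Lgals3bp*. Its *Rsad2* was 38.1 CPM against 19.7 to 21.5 CPM, its *Usp18* 101 CPM against 66.1 to 67.5 CPM and its *Ifit1* 199.5 CPM against 96.2 to 118 CPM in the other 4 mice. Thymic WT mouse 5 was highest in 22 genes (16.8% of all genes). In splenic WT Tregs mice 2 and 3 were highest in 20 and 17 of the 38 genes (21.7% and 28.2% of all genes), and mice 4 and 1 lowest in 21 and 17 (23.9% and 29.3%). In splenic CD25 KO Tregs no mouse was highest in more than 15 genes. In thymic CD25 KO mouse 5, markers of immature thymocytes and CD8 T cells summed to 99.7 CPM, the highest of its group (45.2 to 99.7 CPM), macrophage and monocyte markers to 27.5 CPM, also the highest (7.50 to 27.5 CPM), while of 6 plasmacytoid dendritic cell markers 5 were at the group's lowest value. *Siglech* was 1.71 CPM against 9.35 to 32.5 CPM in the other 4 mice, and only *Ccr9*, which thymocytes express as well, was at its highest (150 CPM). Their part in the levels of this mouse was not tested.

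**Figure D5:**
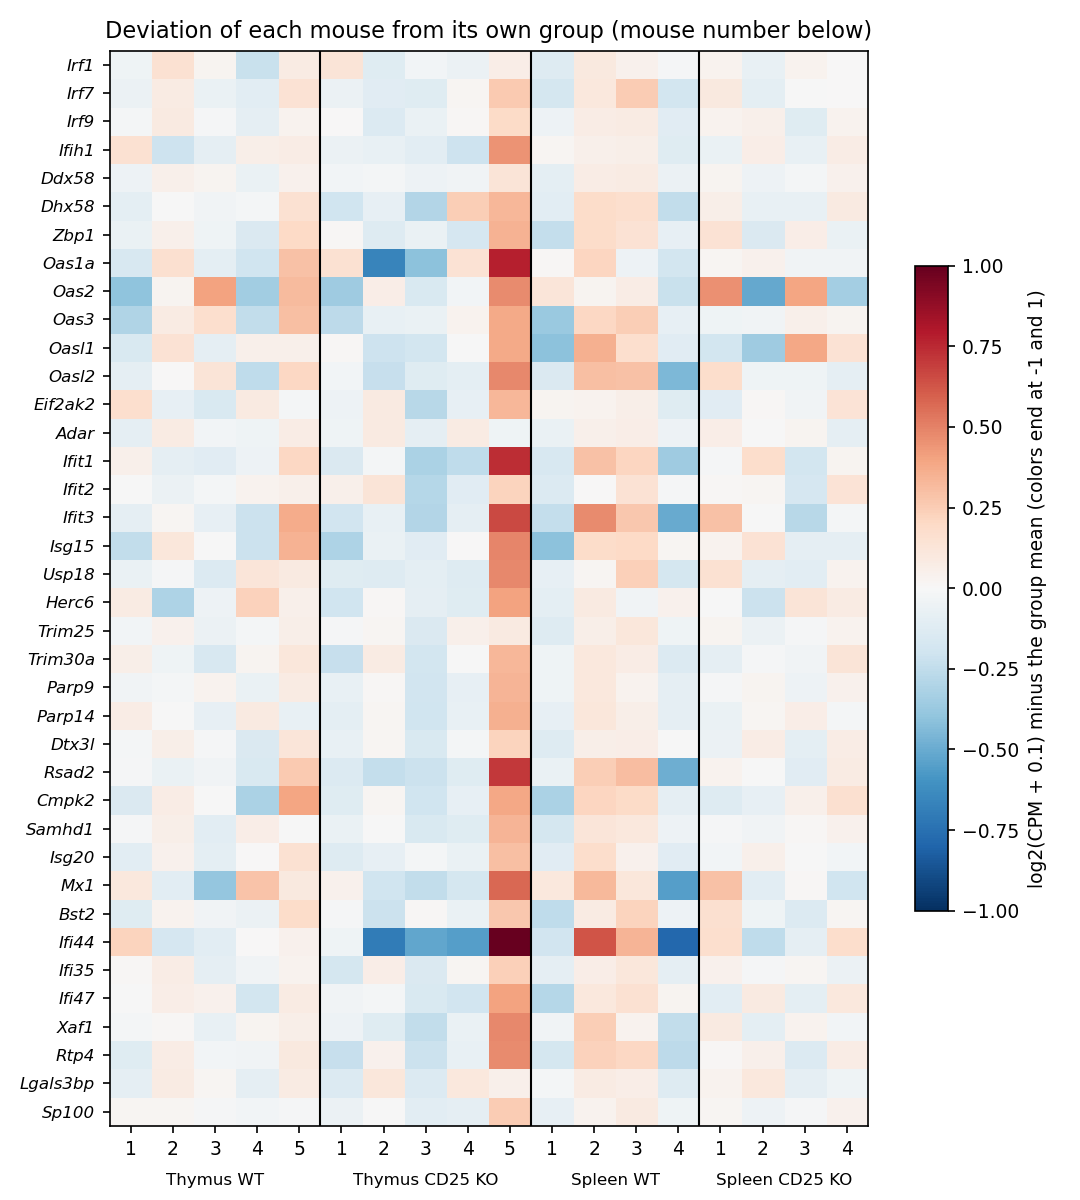
Log2 of CPM + 0.1 minus the mean of the mouse's own group (color) for the 38 genes (y axis) in each of the 18 mice (x axis, by group and mouse number). Red is above and blue below the group mean. Thymic CD25 KO mouse 5 is red in nearly all genes and is highest of its group in 35.

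The rest of the interferon pathway was measured in the same libraries. Of 11 interferon ligand genes, *Ifnb1*, *Ifna4*, *Ifna5*, *Ifne*, *Ifnl2* and *Ifnl3* had 0 counts in all 18 libraries. By counting error alone this allows at most 0.162 CPM, and how reads that match several genes were counted is not given. *Ifna1* and *Ifna2* had at most 2 counts in a library. Only *Ifnk* was tested in the thymus (1 gene) and *Ifnk* and *Ifng* in the spleen (2 genes). *Ifng*, the type II interferon, rose in splenic CD25 KO Tregs from 2.64 ± 0.42 CPM (SD, n = 4) to 6.36 ± 0.96 CPM (SD, n = 4), a log2 fold change of 1.25 (edgeR adjusted p = 4.54e-05).

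Of 15 receptor and proximal signaling genes tested in the spleen, 3 rose and 3 fell, against 5.9% and 3.55% of all genes tested. *Socs1*, an inhibitor of JAK kinases and a target of IL-2 as well as interferon signaling, was 53.2 to 59.3 CPM in thymic WT and 25.4 to 32.7 CPM in thymic CD25 KO mice, and 73.5 to 83.7 CPM and 53.3 to 65.0 CPM in the spleen, lower in all CD25 KO mice. *Socs3* fell in the thymus (-0.80). *Stat2* had log2 fold changes of -0.10 and -0.04 and *Ifnar2* of -0.09 and -0.12, none called. *Ifnar1* had -0.10 in the thymus and fell in the spleen (-0.22; edgeR adjusted p = 0.00485). In the spleen *Ifngr1* (0.55), *Ptpn11* (0.49) and *Jak2* (0.48) rose and *Ifngr2* (-0.44) fell.

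Of the genes that induce interferon, 0 of 12 rose and 2 fell in the thymus, *Tmem173* (STING, -0.41) and *Irf5* (-0.79), and 0 of 13 were called in the spleen, where 2 were lower at FDR < 0.05 by edgeR. Of other interferon stimulated genes, 1 of 34 rose in the thymus (*Ddx60*, 0.51) and 2 fell (*Ube2l6*, -1.25, and *Ly6e*, -0.36). In the spleen 2 of 35 rose (*Ifitm2*, 1.09, and *Ifi27l2a*, 0.41) and 1 fell (*Sp110*, -0.29). The median log2 fold change of these genes was -0.02 (thymus) and 0.03 (spleen). Among all genes tested, 3.17% rose and 2.99% fell in the thymus, and 5.9% rose and 3.55% fell in the spleen. The counts of the other interferon stimulated genes were near that background. With the GC correction *Tmem173* (-0.33), *Ddx60* (0.27) and *Ly6e* (-0.21) kept their direction and were not called.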

How the data were processed

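RNA-seq libraries were prepared from sorted Tregs with a KAPA RNA HyperPrep kit with RiboErase. According to the labels and methods, the authors aligned reads with STAR 2.5.0b to GRCm38 and counted them per GENCODE M13 gene with featureCounts 1.5.0. They deposited raw counts, without normalization, in 1 table, and all 18 of its columns were mapped to samples by their labels. Symbols, coordinates and exon lengths came from GENCODE M21 on the same build (50376 of 50600 identifiers had a symbol).

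In R 4.3.3, genes were filtered by filterByExpr, scaled by TMM and tested with edgeR 4.0.16 (glmQLFit, glmQLFTest), with Benjamini-Hochberg adjustment over all genes and a threshold of FDR < 0.01. Genotypes were compared within a tissue. The difference between tissues and the WT comparison used all 18 libraries. DESeq2 1.42.0, which the study's methods name, was an alternative, as were other scalings, filters, a GC correction, the mouse number as a block and leaving out each mouse. SEs come from the fold change and the F statistic. Mean log2 CPM used a prior count of 2. The tests were checked on simulated counts. Large effects were recovered in every comparison, but the share of all changed genes recovered for the difference between tissues missed the limit first set, which was then replaced by limits on large effects, on bias and on calls among unchanged genes. DESeq2 made more calls among unchanged genes than its threshold allows in all comparisons but the difference between tissues. The members, the gene lists and the tests were chosen with earlier results of these data known. Every member is named, and 1 other gene of the naming rule is not reported here. Values per mouse are given for members called between genotypes, for *Irf7* and *Isg15*, and for up to 4 called genes of the WT comparison in each direction. *Lgals3bp* and *Ifi44* were singled out after their values were seen. Libraries carry no molecular identifiers, so floors cover counting error only.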

Additional observations from a re-analysis of the deposited data

Results flagged for a closer look

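In thymic CD25 KO Tregs, mouse 5 stood apart from the other 4 mice by Dixon's gap test in the mean over the 38 genes (6.71 log2 CPM) and in 14 genes. These were *Ifih1* (158 CPM), *Ddx58* (222 CPM), *Oasl2* (60.3 CPM), *Ifit1* (199.5 CPM), *Ifit3* (59.99 CPM), *Usp18* (101 CPM), *Rsad2* (38.1 CPM), *Samhd1* (1077 CPM), *Isg20* (29.1 CPM), *Mx1* (36.95 CPM), *Ifi44* (12.4 CPM), *Ifi47* (314 CPM), *Xaf1* (116 CPM) and *Sp100* (734 CPM). Chance flags about 1 in 20 groups, and 6.99% of all 16986 genes were flagged in this group. The genes were measured in the same mice, so the flags are not independent.

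In the spleen, *Eif2ak2* was low in WT mouse 4 (63.5 CPM), *Irf9* was low in CD25 KO mouse 3 (146 CPM) and *Oasl2* was high in CD25 KO mouse 1 (20.1 CPM) relative to the rest of their groups.

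The change on loss of CD25 differed between spleen and thymus, in edgeR's test of the difference, for *Oas3* (0.96 on the log2 scale), *Lgals3bp* (0.53) and *Ifit2* (-0.47).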

How the results depend on the processing

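Among the 38 genes in the thymus, 2 were called higher and 1 lower, against 4 and 2 with DESeq2, with all 18 libraries in 1 fit and at FDR < 0.05, and 1 and 0 with the GC correction. Leaving out 1 mouse gave 0 to 1 higher and 0 to 2 lower. In the spleen, 3 and 0 became 5 and 1 with DESeq2, 10 and 1 without a filter on low counts, 8 and 1 at FDR < 0.05, 0 higher with all 18 libraries in 1 fit, and 1 lower with upper-quartile scaling. Leaving out 1 mouse gave 0 to 4 higher and 0 to 1 lower. For the difference between tissues, 2 higher and 1 lower became 2 lower at FDR < 0.05 and 0 lower with the GC correction, and leaving out 1 mouse gave 2 to 5 higher and 0 to 1 lower. The median over the genes in place of the mean gave 5.56 log2 CPM for splenic WT and 5.61 for splenic CD25 KO. No called log2 fold change of these genes reversed under any alternative run. The count of lower genes in the WT comparison kept within 22 to 27.

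Over all genes, the thymic counts of 539 higher and 508 lower became 1517 and 1246 with DESeq2, 1296 and 1585 with all 18 libraries in 1 fit, 2093 and 1858 at FDR < 0.05, 51 and 158 with the replicate block, and 54 and 150 with block and GC correction. Upper-quartile scaling moved the split to 808 and 440 there, and that of the difference between tissues from 840 and 465 to 616 and 669. With the replicate block in the thymus, 0 of the 38 genes were higher and 1 (*Oas3*) was lower, and together with the GC correction 1 and 1. Same-numbered mice showed no clear shared deviation (correlations from -0.24 to 0.14). Only WT mouse 1 correlated best with the CD25 KO mouse of its own number. Such a check cannot exclude that the mice were handled in pairs. Splenic counts of 1031 and 620 became 424 and 371 with all 18 libraries in 1 fit and 1774 and 1227 at FDR < 0.05. They became 1310 and 835 with DESeq2 and 1468 and 888 without a filter on low counts. The difference between tissues had 1346 and 798 with DESeq2 and 1835 and 1314 at FDR < 0.05. Where nothing else is said, the cause was not tested. Depth did not limit detection of the 38 genes, each with at least 40 counts in every library, and 4 or 5 mice a group limit the precision.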
